A study of Mus musculus with 24 samples.

Results

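The MxCre floxed libraries are 6 of the 24 RNA sequencing libraries of a series on mouse MLL-AF9 leukaemia, an acute myeloid leukaemia driven by a fusion of the MLL and AF9 genes. They were chosen by title: 3 are titled A1b and 3 are titled A2, and the comparison asks which genes separate the 3 titled A1b from the 3 titled A2 and which follow single libraries. All 6 came from bone marrow of moribund secondary recipients of MxCre+ fl/fl leukaemia cells. Each recipient was given the interferon inducer pIpC at 12.5 µg/g in 3 injections within a week, starting 21 days after transplantation. The titles and the cell type descriptions disagree: the set titled A1b is described as Arid2 fl/fl and the set titled A2 as Arid1b fl/fl. Because of this conflict the libraries are named by title here, without stating which gene was deleted. Each set has 3 MxCre+ control libraries, described as +/+ for the same gene as their own floxed set and treated with the same pIpC course, so the control libraries also carry Cre and the treatment.

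Arid1b and Arid2 encode the alternative DNA-binding subunits of SWI/SNF, a complex that moves nucleosomes with the energy of ATP. ARID1B sits in the BAF form of the complex and ARID2 in the PBAF form. The MxCre transgene is driven by the interferon-inducible Mx1 promoter, which is not restricted to blood cells. Bone marrow of a recipient also holds host cells, and in bulk RNA fewer cells of a type and less RNA per cell cannot be told apart.

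Library sizes were 12069153 to 15117504 counts in the titled A1b floxed libraries and 16361323 to 26240568 in the titled A2 floxed libraries. Mpo, the myeloperoxidase of early myeloid granules, was detected in all 6, at 2215, 2961 and 260 CPM in titled A1b libraries 1 to 3 and 8218, 11198 and 1683 CPM in titled A2 libraries 1 to 3. CPM, the usual depth-adjusted count, was computed with TMM-scaled library sizes. Of the 6 libraries, 3 stood apart from their group. Titled A1b library 1 resembled titled A2 libraries 1 and 2, from which 2071 and 1800 genes were over 2-fold apart, while 4647 and 3707 were over 2-fold apart from its own group mates. By Pearson correlation over all 24 libraries, titled A1b floxed library 1 was nearest to titled A2 control library 3 (0.962), then titled A2 floxed library 2 (0.961). Titled A1b floxed libraries 2 and 3 were both nearest to titled A2 control library 2 (0.945 and 0.956). Titled A2 floxed libraries 1 and 2 were nearest to each other (0.967), and library 3 to a library outside the MxCre sets (0.941). Whether the titles, including that of titled A1b library 1, are right was not tested, and the comparison is also given without that library. Titled A2 library 3 differed over 2-fold from titled A2 libraries 1 and 2 at 3618 and 3241 genes, while those libraries differed from each other at 1578. Titled A1b library 2 had relatively more reads from short genes, with a Spearman correlation across genes of -0.36 between exon length and its deviation from the 6 libraries, against 0.06 to 0.17 in the other 5. The first principal component of the 6 libraries held 44.4% of the variance and put titled A1b library 1 at -57.3, beside titled A2 libraries 1 and 2 at -77.0 and -50.4. The other titled A1b libraries lay at 78.9 and 65.1 and titled A2 library 3 at 40.7. For the median gene, 15.2% of the variance among the 6 libraries lay between the titles.

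**Figure D1:**
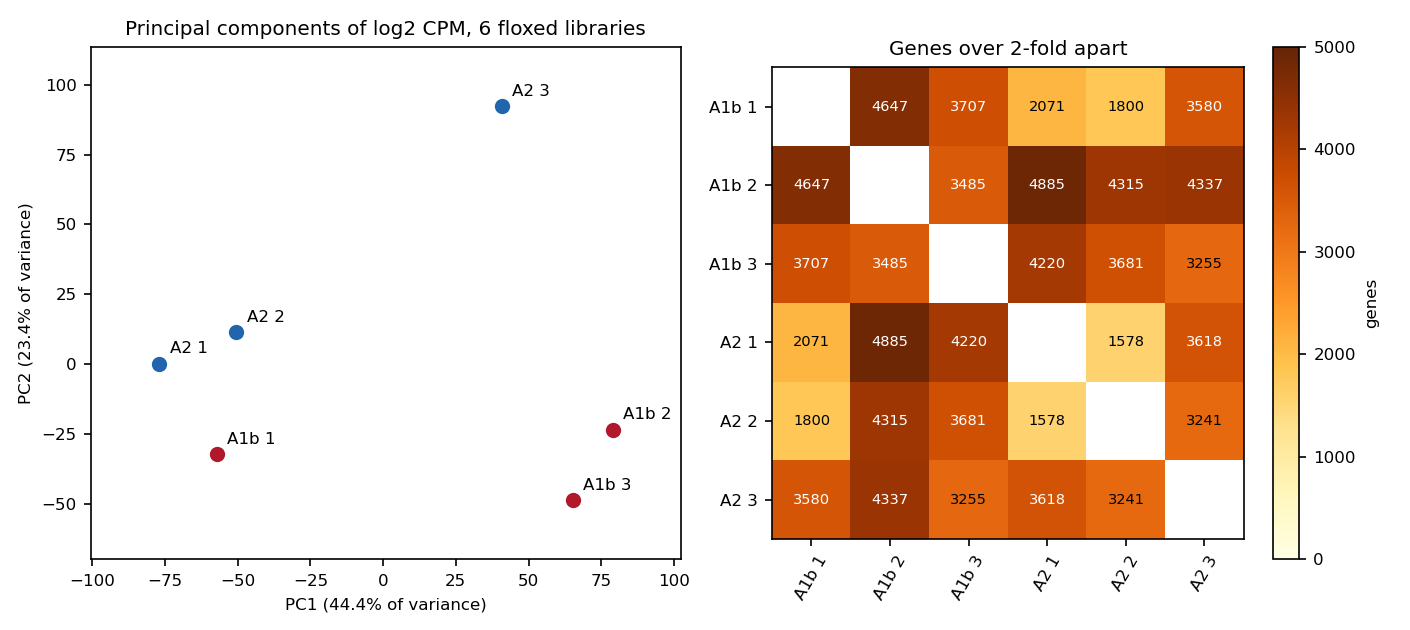
Left, the first (x) and second (y) principal components of log2 CPM in the 6 MxCre floxed libraries, titled A1b in red and titled A2 in blue. Right, the number of genes over 2-fold apart for each pair of libraries: titled A1b library 1 is nearer to titled A2 libraries 1 and 2 (2071 and 1800 genes) than to its own group.

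Both Arid genes were read in every floxed library. Arid1b (mm10 chr17:4994332-5347656) had 262, 55.7 and 253 CPM in titled A1b libraries 1 to 3 and 183, 181 and 169 CPM in titled A2 libraries 1 to 3. Arid2 (chr15:96287518-96404992) had 404, 121 and 402 CPM in titled A1b libraries and 245, 348 and 274 CPM in titled A2 libraries. Titled A1b library 2, the library with relatively more reads from short genes, was lowest for both genes, and the groups overlapped. The part of that length trend in its low levels of both genes was not tested. The log2 fold changes, titled A1b over titled A2, were 0.10 for Arid1b (95% interval -0.84 to 1.03) and 0.10 for Arid2 (-0.76 to 0.95), with edgeR adjusted p of 0.928 and 0.921. A two-sided exact permutation test gave p = 1 for each, where the smallest p that 3 against 3 allows is 0.1. Both values turned negative without titled A1b library 1, at -0.21 and -0.15, and without titled A1b library 3, at -0.16 and -0.14. No source used here names the deleted exons, and a gene count includes reads from exons outside the deletion, so these levels do not check which gene was deleted. None of the 15 SWI/SNF core subunits, 5 tested BAF-specific subunits or 7 PBAF and ncBAF subunits passed the test. The lowest p among the core subunits belonged to Smarcc2, a scaffold subunit, with 235, 130 and 200 CPM in titled A1b libraries and 267, 256 and 280 CPM in titled A2 libraries (log2 fold change -0.51, SE 0.17, adjusted p = 0.169).

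The titles were separated by 10 genes: 5 were higher and 5 lower in the titled A1b floxed libraries, 0.0709% of the 14099 genes tested and 0.0355% in each direction. The edgeR quasi-likelihood test with Benjamini-Hochberg adjustment gave an adjusted p of 0.0366 for each of the 10, and in each the 3 titled A1b libraries lay on 1 side of all 3 titled A2 libraries. Such a lack of overlap was common, at 1533 genes or 10.9% of those tested, 702 higher (4.98%) and 831 lower (5.89%). At an unadjusted p under 0.05 there were 2336 genes (16.6%), 1312 higher and 1024 lower. Nothing in the labels says that the libraries of a group derive from different primary leukaemias or recipients, so these p-values reflect only the spread among these samples. The Y-linked gene Kdm5d had 35.2, 0 and 0 CPM in titled A1b libraries. The 4 tested Y-linked genes summed to 69.6, 284 and 190 CPM in titled A2 libraries. The libraries of a group were thus not copies of 1 sample, but how much of their spread is technical was not tested.

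Evpl, which encodes the desmosomal plakin envoplakin, was the called gene with the highest fold change. It had 16.4, 26.0 and 71.6 CPM in titled A1b libraries and 1.91, 3.83 and 4.85 CPM in titled A2 libraries. Every titled A1b library lay above every titled A2 library, although titled A1b library 3 stood well above its mates (log2 fold change 3.43, SE 0.55; 2.59 without that library). Fbxo44, an F-box adaptor of a ubiquitin ligase, had 1.62, 3.21 and 4.62 CPM in titled A1b libraries and 0.30, 0.33 and 0.49 CPM in titled A2 libraries (log2 fold change 3.07, SE 0.55). Neurl1b, a ubiquitin ligase that acts on Notch ligands, was even within groups, at 17.2 ± 2.76 CPM in titled A1b and 3.77 ± 1.14 CPM in titled A2 libraries (SD, n = 3 each; log2 fold change 2.19, SE 0.37).

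Ccdc69, a coiled-coil protein gene, averaged 21.0 ± 1.55 CPM in titled A1b and 9.67 ± 2.74 CPM in titled A2 libraries (SD, n = 3 each; log2 fold change 1.12, SE 0.20). Gla, the X-linked gene of lysosomal alpha-galactosidase A, had 40.2, 40.8 and 51.6 CPM in titled A1b libraries and 23.9, 23.2 and 22.7 CPM in titled A2 libraries. Its log2 fold change of 0.93 (SE 0.15) was under 2-fold, and the groups were far from overlapping. Sh3bgrl3, a small thioredoxin-like protein gene, came next among the separated genes and did not pass, with 481, 934 and 869 CPM in titled A1b against 261, 397 and 393 CPM in titled A2 libraries (log2 fold change 1.12, adjusted p = 0.0737).

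Among the lower genes, Gimap6, a GTPase of the immunity-associated family, had 1.17, 2.34 and 1.54 CPM in titled A1b libraries and 6.73, 7.0 and 22.7 CPM in titled A2 libraries, the third of which was the highest (log2 fold change -2.85, SE 0.51). Gabbr1, a subunit of the GABA-B receptor, averaged 1.05 ± 0.66 CPM in titled A1b and 6.70 ± 0.92 CPM in titled A2 libraries (SD, n = 3 each; log2 fold change -2.67, SE 0.48). Chst11, which sulfates chondroitin, had 32.2, 11.9 and 23.1 CPM in titled A1b libraries and 99.8, 74.7 and 60.4 CPM in titled A2 libraries (log2 fold change -1.80, SE 0.30). Golim4, a Golgi membrane protein gene, lay lower without passing, at 102, 62.7 and 69.2 CPM in titled A1b against 238, 164 and 134 CPM in titled A2 libraries (log2 fold change -1.20, adjusted p = 0.0647).

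**Figure D2:**
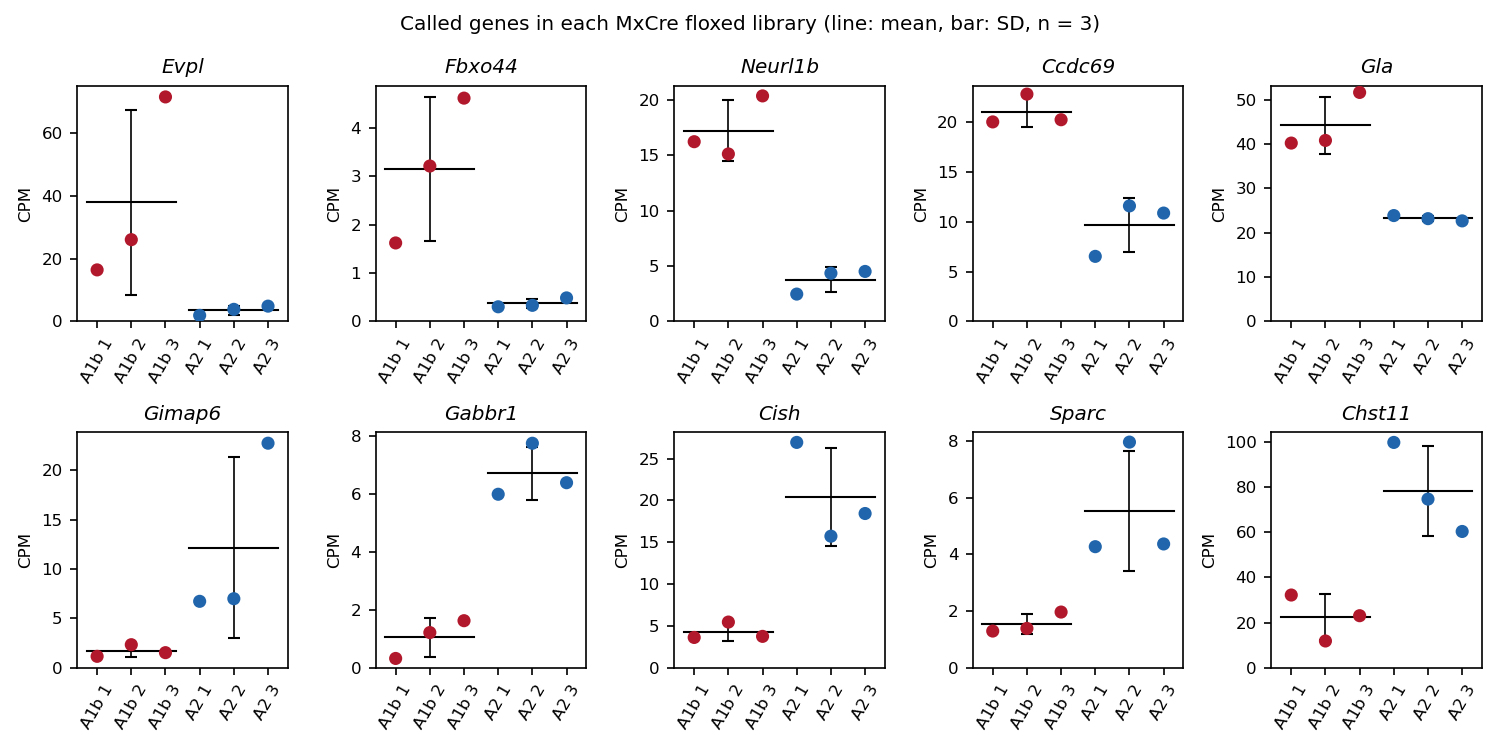
CPM of the 10 called genes in each MxCre floxed library (points), with the group mean (line) and SD (bar, n = 3), titled A1b in red and titled A2 in blue. Each panel has its own axis from 0, and in every panel the groups do not overlap, as for Gla at 40.2 to 51.6 CPM in titled A1b and 22.7 to 23.9 CPM in titled A2 libraries.

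Cish encodes a feedback inhibitor of cytokine signalling whose transcription is driven by STAT5, a factor activated by receptors for cytokines such as IL-3 and GM-CSF. It had 3.63, 5.47 and 3.76 CPM in titled A1b libraries and 26.9, 15.7 and 18.4 CPM in titled A2 libraries (log2 fold change -2.25, SE 0.39). All 6 MxCre control libraries lay below every titled A2 floxed library, with 2.95, 3.90 and 5.45 CPM in titled A1b and 1.30, 3.64 and 3.74 CPM in titled A2 controls. The promoter of Cish is printed because the gene separates the titles and is a textbook STAT5 target. The sequence is the RefSeq GRCm38.p6 window chr9:107296409-107296708, plus strand, with matches to TTCNNNGAA in capitals. This motif is its own reverse complement, and 8.3% of the 32851 RefSeq promoter windows of 300 bases hold at least 1 match, while 0.457% hold 2 or more, as Cish does.
Cish: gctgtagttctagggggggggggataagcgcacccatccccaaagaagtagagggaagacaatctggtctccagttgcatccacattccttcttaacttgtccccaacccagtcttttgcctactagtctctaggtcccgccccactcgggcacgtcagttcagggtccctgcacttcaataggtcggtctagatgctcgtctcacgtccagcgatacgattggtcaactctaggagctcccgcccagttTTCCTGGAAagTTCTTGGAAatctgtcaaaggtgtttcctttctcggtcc

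Other feedback and target genes of STAT5 were listed after their values had been seen, so their counts support nothing. Socs2, a relative of Cish in the same feedback, had 0.13, 0.43 and 0.68 CPM in titled A1b libraries and 5.38, 4.42 and 1.18 CPM in titled A2 libraries, with an adjusted p of 0.0737 (edgeR). Pim1, a survival kinase gene, had 21.1, 50.5 and 57.9 CPM in titled A1b and 250, 255 and 91.5 CPM in titled A2 libraries, with an adjusted p of 0.0737 (edgeR). For both genes titled A2 library 3 was the lowest of its group but still above every titled A1b library. The receptor subunit gene Csf2rb had 310, 254 and 231 CPM in titled A1b and 370, 372 and 333 CPM in titled A2 libraries (adjusted p = 0.261), and Stat5a overlapped, at 59.0 to 83.8 CPM in titled A1b and 68.2 to 82.0 CPM in titled A2 libraries.

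Sparc, a secreted matrix glycoprotein gene, was the called gene that belonged to a marker list, that of stromal and endothelial cells. It had 1.30, 1.39 and 1.97 CPM in titled A1b libraries and 4.27, 7.96 and 4.37 CPM in titled A2 libraries (log2 fold change -1.84, SE 0.32, adjusted p = 0.0366 with edgeR). Of the 12 tested stromal and endothelial markers, 7 lay lower in titled A1b with no overlap, beside 5.89% of all genes, and the median log2 fold change was -1.96 against -0.01 over all genes. The collagen gene Col1a2 had 0.91, 2.34 and 1.54 CPM in titled A1b and 4.67, 7.11 and 8.66 CPM in titled A2 libraries (adjusted p = 0.0737), and the proteoglycan gene Bgn had 1.43, 1.04 and 1.37 CPM in titled A1b and 5.53, 8.91 and 3.53 CPM in titled A2 libraries (adjusted p = 0.0846). Cxcl12, the chemokine of marrow niche cells, followed the same order, at 5.45, 7.81 and 2.56 CPM in titled A1b and 31.2, 46.1 and 29.2 CPM in titled A2 libraries (adjusted p = 0.1). The endothelial markers Kdr, Tek and Emcn had too few counts to be tested, and 2 of the 12 had the opposite sign, among them Vim, an intermediate filament gene that many blood cells also express. With Vim included, the summed level of the list was 742 to 2686 CPM in titled A1b and 596 to 1024 CPM in titled A2 libraries. The part of residual stromal cells in these values was not tested.

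Of 14 tested B-lineage genes, 7 lay lower in titled A1b with no overlap and 1 higher, beside 5.89% and 4.98% of all genes, while none passed the test. Ebf1, a factor that specifies B cells, had 0.06, 0.17 and 0.09 CPM in titled A1b and 0.85, 1.22 and 1.59 CPM in titled A2 libraries (adjusted p = 0.0737). Cd79a, a B cell receptor subunit gene, had 0.78, 1.22 and 1.20 CPM in titled A1b and 2.51, 2.54 and 8.32 CPM in titled A2 libraries (adjusted p = 0.101). Cd79b went the other way, at 28.3, 64.7 and 50.8 CPM in titled A1b and 2.31, 20.4 and 9.36 CPM in titled A2 libraries. The list's median log2 fold change was -2.04, and its summed level was 49.2, 83.5 and 59.3 CPM in titled A1b and 29.2, 47.3 and 58.2 CPM in titled A2 libraries, so the groups overlapped in the sum. The part of residual B cells in these values was not tested.

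The 10 calls depended on which libraries were present. Without titled A1b library 1 the same fit called 1786 genes, 909 higher (6.33%) and 877 lower (6.1%), 12.4% of 14369 tested, and all 10 were among them. The calls of that fit differed in exon length, with a median of 2802 bases for those higher and 6009 for those lower, against 4183 for all tested genes, and titled A1b library 2, with its excess of short genes, was 1 of the 2 titled A1b libraries left. Without titled A1b library 2, titled A1b library 3 or titled A2 library 1 no gene was called. Without titled A2 library 2 there were 12 calls, 4 of them among the 10, and without titled A2 library 3 there were 20, 8 of them among the 10. Among the floxed libraries with more than 10 CPM of the Y-linked gene Kdm5d, here called Y-positive, titled A1b library 1 against all 3 titled A2 libraries gave 1 call, the lone titled A1b library being assumed to vary like the other groups.

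Of the 4 tested genes of the Y chromosome, Kdm5d, Uty and Ddx3y lay lower in titled A1b with no overlap, beside 5.89% of all genes. Levels also differed within groups. Kdm5d, a histone demethylase gene, had 35.2, 0 and 0 CPM in titled A1b libraries and 42.1, 51.7 and 48.7 CPM in titled A2 libraries. Xist, the RNA that silences the inactive X chromosome, had 28.1, 655 and 1293 CPM in titled A1b and 33.8, 22.4 and 129 CPM in titled A2 libraries, so the 2 libraries with no Kdm5d were those with most Xist. The 4 Y-linked genes did not move together. Uty was at 0 in all 3 titled A1b libraries and at 27.4, 28.9 and 35.9 CPM in titled A2 libraries, and Ddx3y was at 0 in titled A1b and at 0.10, 96.0 and 105 CPM in titled A2 libraries. Eif2s3y had 102, 0 and 0 CPM in titled A1b and 0, 108 and 0.07 CPM in titled A2 libraries. Titled A2 library 2 was thus the library with all 4 Y-linked genes above 20 CPM, while titled A1b library 1 and titled A2 libraries 1 and 3 each had 2 or 3 of them. None passed the test in the main fit, while Uty was called in 2 of 21 alternative fits and Ddx3y in 1 of 19. As no titled A2 floxed library was Y-negative, Y status and title cannot be told apart in titled A1b libraries 2 and 3.

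A gene was said to follow 1 library where that library lay at least 2 log2 units above or below all other 5. For genes above, that library had to reach 2 CPM, and for genes below, each of the other 5 had to. These conditions held for 515 genes, 3.65% of those tested. Because 5 of them followed 2 libraries, there were 520 cases, 303 higher and 217 lower in their library. Of the 515 genes, 351 were over 2-fold in the comparison of titles and 195 had an unadjusted p under 0.05, but none was among the 10 called genes. Titled A2 library 3 had the most, with 153 genes higher and 25 lower. Titled A1b library 2 had 18 higher and 92 lower, titled A1b library 3 had 70 and 19, and titled A2 library 1 had 6 and 63. Titled A2 library 2 had 39 higher and 3 lower, and titled A1b library 1, although it clustered with the other title, had 17 and 15. As these genes were picked by their values, the levels below are a description with no test.

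**Figure D3:**
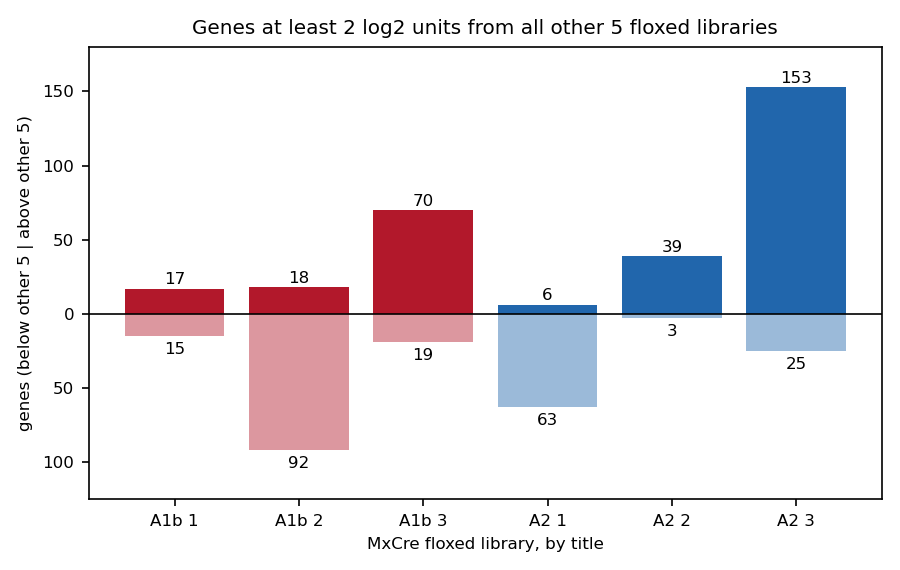
Number of genes that lie at least 2 log2 units above (upward bars) or below (downward, paler bars) all other 5 MxCre floxed libraries, per library on the x axis. Titled A2 library 3 has the most genes above the rest, 153, and titled A1b library 2 the most below, 92.

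Titled A1b library 3 was set apart by immediate-early genes, transcription factors and signal inhibitors that cells switch on within minutes of a stimulus. Fosb had 0.26, 0.35 and 845 CPM in titled A1b libraries 1 to 3 and 0.35, 0.22 and 1.46 CPM in titled A2 libraries 1 to 3. Fos had 12.7, 26.7 and 1584 CPM in titled A1b and 1.86, 5.82 and 13.5 CPM in titled A2 libraries, and Jun had 8.69, 15.5 and 652 CPM in titled A1b and 4.37, 6.0 and 6.65 CPM in titled A2 libraries. Egr1 reached 394 CPM in titled A1b library 3, and Dusp1, a phosphatase that turns off MAP kinases, reached 540 CPM there against 2.53 and 5.21 CPM in its mates and 3.27 to 10.8 CPM in titled A2 libraries. This library was followed by 10 of the 23 tested immediate-early genes, and 21 had their highest floxed level in it. Their summed level was 488, 1091 and 7504 CPM in titled A1b and 343, 407 and 702 CPM in titled A2 libraries.

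In the comparison of titles 18 of the 23 immediate-early genes had an unadjusted p under 0.05 with a higher level in titled A1b, beside 9.31% of all genes, and none passed the adjusted test. Their median log2 fold change was 1.77, against -0.01 over all genes. Without titled A1b library 3 the log2 fold change of Fos was 1.49, of Jun 1.09 and of Egr1 2.96, with edgeR adjusted p of 0.372, 0.354 and 0.247. With all libraries they were 6.28, 5.31 and 6.78, with an adjusted p of 0.0737 for each. Without titled A1b library 1, 16 of the 23 were called higher, beside 6.33% of all genes in that fit, whose calls differed in exon length as given above. Cxcl2, a neutrophil chemokine gene, was also carried by titled A1b library 3, at 0.06, 1.74 and 45 CPM in titled A1b and 0.05, 0 and 0.21 CPM in titled A2 libraries. Lama5, a laminin chain gene outside these lists, had 1.62, 1.13 and 79.7 CPM in titled A1b and 0.45, 0.55 and 1.11 CPM in titled A2 libraries.

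The promoter of Dusp1, printed as an example of the genes that follow titled A1b library 3, holds 1 match to the cAMP response element TGACGTCA, shown in capitals in the RefSeq GRCm38.p6 window chr17:26508423-26508722, minus strand. The motif is its own reverse complement and occurs in 1.79% of promoter windows of this length.
Dusp1: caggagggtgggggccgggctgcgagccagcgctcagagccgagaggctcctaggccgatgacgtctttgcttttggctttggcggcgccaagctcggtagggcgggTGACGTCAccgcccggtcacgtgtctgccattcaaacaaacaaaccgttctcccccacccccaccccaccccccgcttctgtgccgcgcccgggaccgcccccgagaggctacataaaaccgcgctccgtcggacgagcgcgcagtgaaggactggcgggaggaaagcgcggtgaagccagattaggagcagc

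Titled A2 library 3 was set apart by interferon-stimulated genes, which encode antiviral proteins. Ifit3 had 0.26, 1.39 and 0.09 CPM in titled A1b libraries 1 to 3 and 0.15, 1.14 and 37.2 CPM in titled A2 libraries 1 to 3. Rsad2, which encodes the antiviral enzyme viperin, had 1.36, 5.99 and 1.20 CPM in titled A1b and 0.40, 2.28 and 72.6 CPM in titled A2 libraries. Titled A2 library 3 was the highest of the 6 for both, and the other titled A2 libraries lay within the range of the titled A1b libraries or below it. Irf7, Isg15, Ifit1, Oas3, Oasl1, Oasl2, Mx2 and Usp18 also followed titled A2 library 3, which makes 10 of the 24 tested members, and 21 of the 24 had their highest floxed level there. The summed level was 772, 535 and 381 CPM in titled A1b and 385, 530 and 1604 CPM in titled A2 libraries. All MxCre mice had received the interferon inducer, and no source used here gives the interval from the injections to collection.

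None of the 24 interferon genes passed the test between titles, and 6 had an unadjusted p under 0.05 with a lower level in titled A1b, beside 7.26% of all genes. Without titled A2 library 3 the log2 fold change of Ifit3 was -0.22, against -4.48 with it, and that of Rsad2 was 1.05, against -3.14 with it. The promoters of both genes are printed because the genes follow 1 library together. Both are RefSeq GRCm38.p6 windows, chr19:34583279-34583578 on the plus strand for Ifit3 and chr12:26456403-26456702 on the minus strand for Rsad2. Matches on either strand to the core of the interferon-stimulated response element, GAAA, any 2 bases and GAAA again, are in capitals. Ifit3 has 2 and Rsad2 has 1, and 3.44% of all promoter windows hold at least 1.
Ifit3: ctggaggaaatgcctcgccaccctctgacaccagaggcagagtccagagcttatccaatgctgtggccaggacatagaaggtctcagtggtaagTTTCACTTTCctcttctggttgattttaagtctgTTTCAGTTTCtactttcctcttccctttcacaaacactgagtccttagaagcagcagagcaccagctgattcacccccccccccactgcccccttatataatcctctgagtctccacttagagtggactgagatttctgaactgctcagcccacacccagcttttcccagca
Rsad2: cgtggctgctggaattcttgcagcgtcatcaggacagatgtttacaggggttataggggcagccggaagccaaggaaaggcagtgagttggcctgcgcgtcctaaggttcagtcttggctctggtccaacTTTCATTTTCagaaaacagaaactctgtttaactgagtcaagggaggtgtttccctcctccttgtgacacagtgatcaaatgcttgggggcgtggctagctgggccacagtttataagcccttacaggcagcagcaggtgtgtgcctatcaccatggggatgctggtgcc

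The same library held an excess of stable non-coding RNAs that carry no poly(A) tail. Of 4 tested, 3 followed it and 1 was highest in titled A2 library 1. Rn45s, the ribosomal RNA precursor, had 153738 CPM in titled A2 library 3, or 13.6% of its counts, against 2737 to 3837 CPM in the other 5 floxed libraries. Rmrp, the RNA of a ribonuclease that processes ribosomal RNA, had 182 CPM there against 0.45 to 1.16 CPM in the other 5, and Rpph1, the RNA of ribonuclease P, had 219 CPM against 1.88 to 3.30 CPM. Lars2, a protein-coding gene of a mitochondrial leucine-tRNA ligase, was also high there, at 8899 CPM against 132 to 185 CPM. Whether the reads counted for Lars2 came from its mRNA was not tested. Replication-dependent histone genes, whose mRNAs end in a stem-loop, summed to 60.2, 175 and 187 CPM in titled A1b and 56.6, 71.9 and 305 CPM in titled A2 libraries. Of 55 tested, 42 had their highest level in titled A2 library 3, and 8 met the rule for following it. The histone and non-coding RNA lists were made after these values had been seen. Libraries were made from poly(A)-selected RNA, and the part of selection in these levels was not tested.

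Red cell genes were high in 1 library of each title. Hba-a1, an alpha-globin gene, had 0.13, 58.2 and 0.77 CPM in titled A1b and 0.35, 0 and 72.7 CPM in titled A2 libraries, and Hba-a2 had the same values, since the copies share reads. Slc4a1, the anion exchanger of red cells, had 0.45, 62.3 and 0.09 CPM in titled A1b and 0.30, 0.15 and 279 CPM in titled A2 libraries. The summed erythroid markers were 154, 564 and 98.1 CPM in titled A1b and 253, 203 and 1082 CPM in titled A2 libraries, and 13 of 14 were highest in titled A2 library 3. None of the 14 passed the test between titles. Of 12 tested markers of mast cells, basophils and eosinophils, 6 were highest in titled A2 library 3 and the other 6 in other libraries. Cpa3, a mast cell protease gene, was at 0.06, 12.3 and 8.29 CPM in titled A1b and 0.40, 79.4 and 321 CPM in titled A2 libraries. The part of other cell types in the profile of titled A2 library 3 was not tested.

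**Figure D4:**
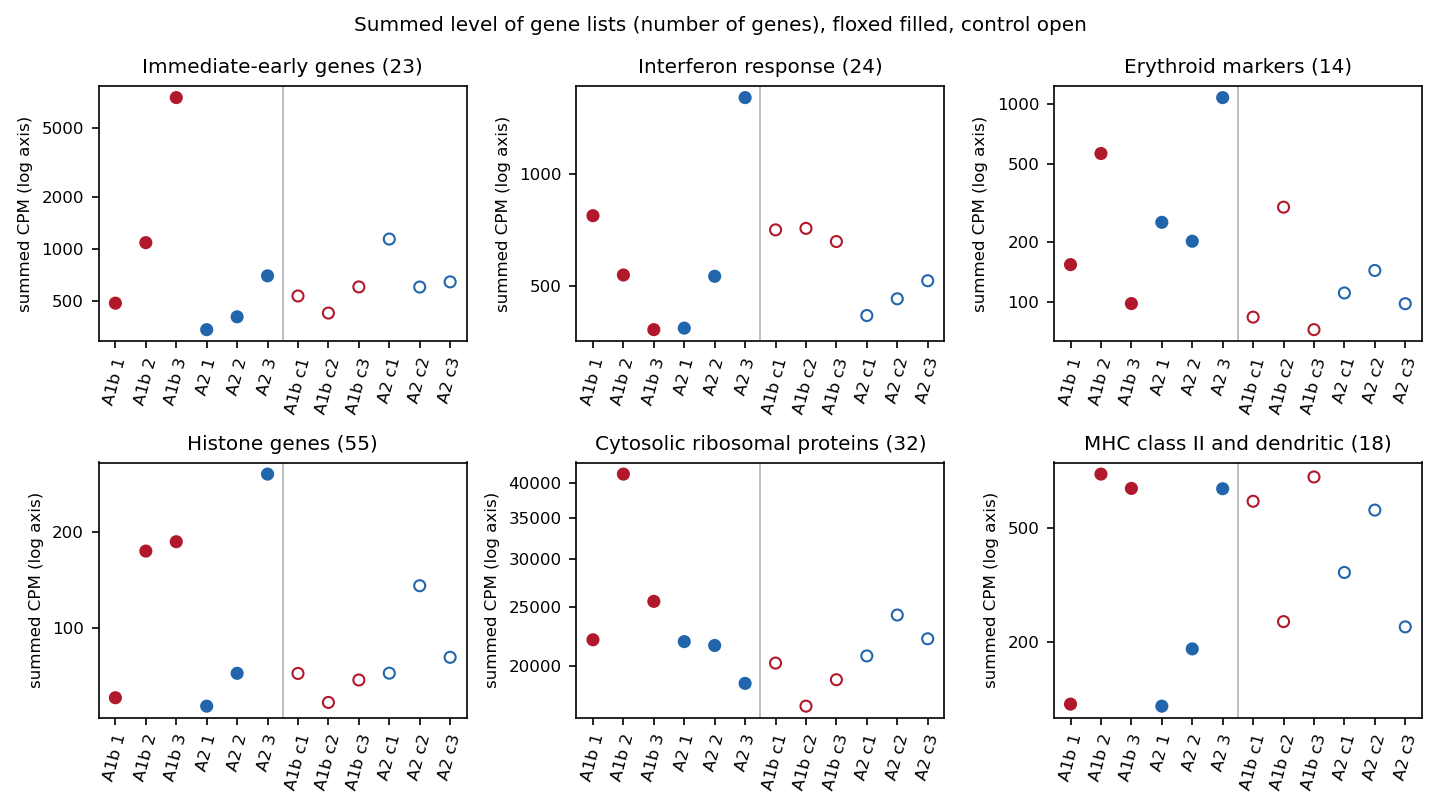
Summed CPM of 6 gene lists (log axis, number of tested genes in brackets) in each MxCre floxed library (filled) and control library (open), titled A1b in red and titled A2 in blue. Immediate-early genes reach 7504 CPM in titled A1b library 3, interferon genes 1604 CPM and erythroid markers 1082 CPM in titled A2 library 3, and ribosomal protein genes 41304 CPM in titled A1b library 2.

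Titled A1b library 2 was set apart by long genes with few reads. The 92 genes below the other 5 libraries had a median exon length of 7950 bases, against 4205 for all tested genes. Sned1, a matrix protein gene, had 22.3, 0.43 and 7.27 CPM in titled A1b libraries and 18.8, 13.3 and 12.1 CPM in titled A2 libraries. Glis3, a zinc finger factor gene, had 13, 0.78 and 11.9 CPM in titled A1b and 13.6, 17.9 and 12.8 CPM in titled A2 libraries. Pdpr, a regulator of pyruvate dehydrogenase, had 37.2, 2.26 and 27.5 CPM in titled A1b and 39.1, 30.4 and 34.0 CPM in titled A2 libraries. At the other end, all 32 cytosolic ribosomal protein genes, which are short, were highest in this library, and so were 28 of 29 nuclear genes of oxidative phosphorylation.

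The ribosomal protein genes summed to 22106, 41304 and 25556 CPM in titled A1b and 21955, 21636 and 18753 CPM in titled A2 libraries. All 32 had a positive log2 fold change between titles, with a median of 0.54, and 25 had an unadjusted p under 0.05, beside 9.31% of all genes higher in titled A1b, but none passed the adjusted test. Rps14 had 706, 1919.9 and 992 CPM in titled A1b and 646, 642 and 633 CPM in titled A2 libraries, a log2 fold change of 0.91 that was 0.41 without titled A1b library 2. Rpl32 behaved alike, at 0.72 and 0.41 without that library, and Cox4i1, a subunit of cytochrome oxidase, at 0.64 and 0.22. Once the trend with exon length was removed from each library, these values were 0.77, 0.43 and 0.41. The part of the length trend in the remaining differences was not tested further.

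Titled A2 library 1 was marked by genes that it lacked. Ikzf2, the lymphoid and stem cell factor Helios, had 1.66 CPM there, against 114 and 225 CPM in its mates and 181, 103 and 216 CPM in titled A1b libraries. Fam83a had 0.10 CPM there and 10.9 to 88.2 CPM in the other 5. The progenitor antigen gene Cd34 had 12.6, 156 and 105 CPM in titled A1b and 1.61, 84.2 and 417 CPM in titled A2 libraries, and the factor Gata2 had 5.58, 37.4 and 70.7 CPM in titled A1b and 0.45, 22.4 and 164 CPM in titled A2 libraries. For both, titled A2 library 1 was lowest and titled A1b library 1 next lowest. Titled A1b control library 2 was low for the same 3 named genes, with 1.11 CPM of Ikzf2, 9.81 CPM of Cd34 and 1.06 CPM of Gata2, so these low levels were not confined to floxed libraries. In the other direction Grb10, an adaptor of receptor tyrosine kinases, had 33.8 CPM in titled A2 library 1 and 0.06 to 0.78 CPM in the other 5.

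Titled A2 library 2 was marked by few genes, with 39 higher and 3 lower. Among the 39 were 17 of the 46 tested entries of clustered protocadherins, adhesion molecules of neurons, but the 12 numbered Pcdha entries each held the same 113 counts there, so they share reads and count as 1 signal. Stra6, a retinol transporter gene, had 0, 0.09 and 0.43 CPM in titled A1b and 1.91, 75.9 and 0 CPM in titled A2 libraries. Ppp1r14c, a phosphatase inhibitor gene, had 0, 0.09 and 0.09 CPM in titled A1b and 0.75, 35.8 and 0 CPM in titled A2 libraries. Both were also high in titled A1b control library 2, at 137 CPM for Stra6 and 36.1 CPM for Ppp1r14c.

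Titled A1b library 1 lacked Eya1, a transcriptional coactivator gene, with 0.13 CPM against 50.2 and 122 CPM in its mates and 79.2, 112 and 76.2 CPM in titled A2 libraries. Mef2c, a factor highly expressed in MLL-rearranged leukaemia, had 5.12, 311 and 580 CPM in titled A1b and 142, 54.7 and 305 CPM in titled A2 libraries. Hspa2, a heat shock protein gene, had 428 CPM there and 19.6 to 46.1 CPM in the other 5, and Fgfbp3, which binds fibroblast growth factors, had 38.3 CPM there and 0.77 to 1.92 CPM in the other 5. None of these 4 genes separated the titles.

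Monocyte and macrophage genes summed to 1426, 9028 and 6509.6 CPM in titled A1b and 1230, 2791 and 5038 CPM in titled A2 libraries, so titled A1b library 1 was low and titled A2 library 3 was near titled A1b library 3. Lgals3, the macrophage lectin galectin-3, had 93.7, 841 and 501 CPM in titled A1b and 26.9, 49.6 and 98.8 CPM in titled A2 libraries (log2 fold change 3.04, adjusted p = 0.0737). Apoe, the lipid carrier of macrophages, had 35.1, 717 and 642 CPM in titled A1b and 34.0, 91.3 and 78.0 CPM in titled A2 libraries (adjusted p = 0.148), and the monocyte factor Klf4 had 4.35, 166 and 93.2 CPM in titled A1b and 8.29, 14.9 and 18.0 CPM in titled A2 libraries (adjusted p = 0.188). In each, titled A1b library 1 lay within the range of the titled A2 libraries or below it. None of the 23 tested monocyte and macrophage genes passed, with a median log2 fold change of 0.89, and none of 18 MHC class II and dendritic cell genes, with a median of 1.10. Without titled A1b library 1, 3 of the 23 monocyte and macrophage genes (13%) were called higher and 0 lower. In that fit 6.33% of all genes were called higher, and its calls differed in exon length as given above. Lgals3, Apoe and Klf4 passed in it, with edgeR adjusted p of 0.00329, 0.00968 and 0.0162.

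No self-renewal, granule or cell cycle gene of the lists passed the test between titles, although some did not overlap. None of 17 tested MLL-fusion targets passed, with Hoxa7 at 48.5, 28.5 and 30.3 CPM in titled A1b and 63.2, 59.6 and 41.8 CPM in titled A2 libraries (adjusted p = 0.255). The cofactor Pbx3 had 14.3, 8.60 and 10.2 CPM in titled A1b and 17.2, 36.2 and 201 CPM in titled A2 libraries, which did not overlap (adjusted p = 0.0912). Pbx3 also met the rule for following titled A2 library 3. The receptor gene Kit, a progenitor marker, had 67.8, 32.5 and 18.4 CPM in titled A1b and 143, 118 and 75 CPM in titled A2 libraries, which did not overlap but did not pass (adjusted p = 0.163). Of 13 tested stem and progenitor genes, 3 lay lower in titled A1b with no overlap and 1 higher, beside 5.89% and 4.98% of all genes. Only 1 of the 13 had a positive log2 fold change, with a median of -0.81 against -0.01 over all genes, and none passed. Without titled A1b library 1, 1 was called higher and 1 lower (15.4%), near the 12.4% of all genes in that fit. None of 12 primary and 21 later granule genes passed. Padi4 came nearest, at 209, 226 and 236 CPM in titled A1b and 21.3, 45.6 and 113 CPM in titled A2 libraries, which did not overlap (adjusted p = 0.234). None of 32 cell cycle genes had even an unadjusted p under 0.05, and their median log2 fold change was 0.05. Of 23 glycolysis and hypoxia genes, 10 were higher in titled A1b with no overlap, beside 4.98% of all genes, and none passed, among them Aldoc, an aldolase gene, at 7.65, 20.3 and 25.6 CPM in titled A1b and 2.96, 3.83 and 1.25 CPM in titled A2 libraries (adjusted p = 0.0737).

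The control libraries of both sets carry no floxed alleles and were compared by the same fit. No gene was called between titled A1b and titled A2 controls by edgeR, with 817 at an unadjusted p under 0.05, 28 called by DESeq2 and 36 by limma voom, and 1911 genes or 13.6% did not overlap. Of the 10 genes called between the floxed groups, 8 had the opposite sign between the control groups. The difference of both contrasts, floxed minus control, was called for 27 genes (0.192%), 10 higher (0.0709%) and 17 lower (0.121%), and in all 27 the floxed and control contrasts had opposite signs. Opposite signs enlarge this difference, so the selection favours them and the count of 27 supports nothing. Gla had 22.0, 19.4 and 23.9 CPM in titled A1b controls and 33.3, 28.9 and 37.0 CPM in titled A2 controls, so the order among the controls was the reverse of that among the floxed libraries. Gabbr1 had 2.56, 2.01 and 2.14 CPM in titled A1b controls and 0.39, 0.60 and 0.76 CPM in titled A2 controls, again the reverse. Of all genes tested, 64.6% had opposite signs in the floxed and control contrasts, which share no library. The Y-linked gene Kdm5d had 56.6, 0 and 56.3 CPM in titled A1b controls and 0.05, 0 and 0 CPM in titled A2 controls. Titled A1b thus held more Y-positive libraries than titled A2 among controls, and fewer among floxed libraries. The part of this reversed Y status in the opposite signs and in the 27 genes was not tested.

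Prkca, a protein kinase C gene, and Col6a3, a collagen gene, were among the 4 genes with the smallest p of that difference. Prkca had 1.88, 0.87 and 0.43 CPM in titled A1b floxed and 8.69, 11.4 and 6.93 CPM in titled A2 floxed libraries. Among the controls it had 2.17, 16.5 and 4.61 CPM in titled A1b and 0.82, 0.69 and 1.35 CPM in titled A2 libraries. Neither pair of groups overlapped, and titled A1b lay below titled A2 among floxed and above it among control libraries.

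Col6a3 had 1.88, 0.17 and 1.03 CPM in titled A1b floxed and 5.27, 21.7 and 19.5 CPM in titled A2 floxed libraries. Its controls had 59.0, 75.1 and 49.0 CPM in titled A1b and 2.41, 0.28 and 1.05 CPM in titled A2 libraries. The titled A1b floxed libraries were therefore at the level of the titled A2 controls.

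**Figure D5:**
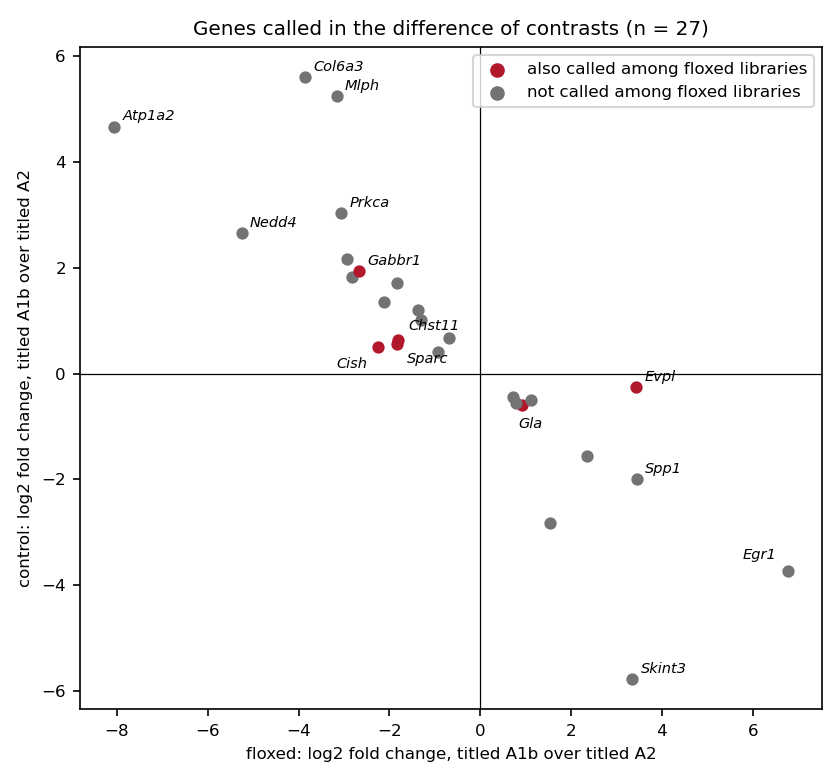
The 27 genes called in the difference of the floxed and control contrasts: log2 fold change of titled A1b over titled A2 among floxed libraries (x) and among control libraries (y), with the genes also called among floxed libraries in red. All 27, picked by a difference that opposite signs enlarge, lie in the quadrants of opposite sign, as Gla does at 0.93 and -0.60.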

How the data were processed

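RNA was TRIzol-extracted, poly(A)-selected and made into directional libraries, per the labels' protocols. Reads were aligned with STAR to mm10, per the submitters' processing notes; no source used here gives the counter, annotation or strand setting, so overlapping and antisense genes are uncertain. The deposited values are raw counts per gene symbol for 24 libraries. No 2 libraries of a floxed group were near-identical.

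From these counts, edgeR 4.0.16 in R 4.3.3 kept 14099 of 24046 genes (filterByExpr, minimum count 10), scaled libraries by TMM and fitted a robust quasi-likelihood model with 8 group means over all 24 libraries (16 residual degrees of freedom). A call needed a p under 0.05 after Benjamini-Hochberg adjustment. All adjusted p-values are from edgeR unless another tool is named. On simulated counts with 50 genes changed per fold size in the comparison of titles, the fit recovered 32% at 2-fold, 64% at 4-fold, 84% at 8-fold and 94% at 16-fold among 13964 genes, with 7 false calls. The simulated counts held no outlying library and no trend with exon length, so these figures may not hold for the real libraries.

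Log2 CPM used a prior count of 2. Coordinates of genes are from GENCODE M21. The members, gene lists and rules were chosen with earlier results of these data known. Named genes were Arid1b, Arid2, Xist, Kdm5d, the called separated genes filled up to 6 per direction, the 6 highest and 4 lowest gaps per library, the 3 members of smallest p per list and the 4 of smallest p in the other contrasts. Cxcl12, Cd79b, Cd34, Gata2, Csf2rb, Stat5a, Socs2, Pim1, Slc4a1, Uty, Ddx3y, Eif2s3y, the further interferon genes and the members of lists made later were chosen after their values were seen. DESeq2 1.42.0 and limma 3.58.1 were alternatives.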

Additional observations from a re-analysis of the deposited data

Results flagged for a closer look

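The difference of both contrasts, floxed minus control, was called at 27 genes by edgeR (adjusted p under 0.05). As given above, this selection favours opposite signs, so the count supports nothing. Y status also ran opposite among floxed and control libraries, and its part in these values was not tested. The differences of log2 fold changes, floxed minus control, were 3.68 for Evpl, 1.53 for Gla, 1.62 for Sh3bgrl3, 9.12 for Skint3 and 10.52 for Egr1. They were -4.61 for Gabbr1, -2.75 for Cish, -2.38 for Sparc, -2.43 for Chst11, -6.10 for Prkca, -9.47 for Col6a3, -8.41 for Mlph and -5.11 for Pbx3. Skint3 had 0.78, 5.99 and 10.4 CPM in titled A1b floxed and 0.50, 0.74 and 0.42 CPM in titled A2 floxed libraries, but 0, 0.17 and 0.26 CPM in titled A1b and 8.01, 14.9 and 2.22 CPM in titled A2 controls. Mlph had 0.97, 0.17 and 0.09 CPM in titled A1b floxed and 1.56, 6.56 and 3.53 CPM in titled A2 floxed libraries, but 14.2, 23.3 and 13.5 CPM in titled A1b and 1.11, 0.14 and 0.06 CPM in titled A2 controls. The value of Egr1 goes with titled A1b floxed library 3, which had 394 CPM. Pbx3 followed titled A2 floxed library 3, which had 201 CPM.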

How the results depend on the processing

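Of the 10 calls between titles, all stayed called under DESeq2, which called 439 genes. The count was 2 with limma voom, 3 with no low-count filter, 6 with the length trend removed, 0 in fits of the 12 MxCre or of the 6 floxed libraries alone. Adding Y-positive status as a term left 1. It was 2 without titled A1b library 2 and titled A2 library 3 together. Alternatives chosen after seeing the data gave 0 without titled A1b library 3 and titled A2 library 3, and 1 among Y-positive libraries. Leaving out 1 library gave 0 to 1786 calls. Between controls there were 28 calls with DESeq2, 36 with limma voom and 0 to 5 with 1 library left out. The difference of contrasts had 604 calls with DESeq2, 44 with a filter of 1 CPM, 14 with none, 0 among the 12 MxCre libraries, 5 without both libraries and 1 to 1419 with 1 left out. For genes of single outlying libraries the count was 2025 at a gap of 1 log2 unit and 152 at 3. The cause of these shifts was not tested.

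With the replicate number as a block, 0 genes were called between titles among 12 or 6 libraries and 2 in the difference. The deviations of same-numbered floxed libraries from their group means correlated at 0.40, -0.21 and 0.24. Deviations within a group of 3 depend on each other, so these values cannot show whether the numbers pair the libraries. With the block, the Arid1b log2 fold change, titled A1b floxed over titled A2 floxed, was -0.0828 among 12 libraries and -0.172 among 6. The Arid2 log2 fold change, titled A1b floxed over titled A2 floxed, was -0.00448 and -0.0605 in the same fits.

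Other values that changed sign were Arid1b at -0.21 and Arid2 at -0.18 without titled A1b library 3 and titled A2 library 3, where Ifit3 was 0.27 and Rsad2 1.40. Leaving out 1 library gave Arid1b values of -0.205 to 0.532, Arid2 values of -0.147 to 0.479 and Rsad2 values of -4.27 to 1.05. Xist was -2.08 with the Y term. Among Y-positive libraries Xist was -1.11, Cxcl2 -0.16, Apoe -0.94, Clec9a -1.51 and Klf4 -1.64. Depth limits genes of a few CPM such as Fbxo44.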
